A study of Mus musculus with 50 samples.

Results

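The genes described here encode the secreted and membrane-bound metalloproteinases that cut the extracellular matrix, and the inhibitors that hold them in check. They were taken by gene symbol from a table of 56691 genes: every Mmp gene with a number, every Adamts gene with a number (the Adamts-like genes were left out), and Timp1 to Timp4. This gave 46 genes, made up of 23 Mmp, 19 Adamts and 4 Timp genes, and no measured value entered the choice. Of the 46, 40 had enough counts to be tested (18 Mmp, 18 Adamts and all 4 Timp genes).

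RNA was measured by poly(A) RNA sequencing of colon, 1 library per mouse, in 50 mice of the BALB/c background (written BALBC in the labels), with 10 mice in each of 5 groups. The sham group received no TNBS according to its label. All 4 other groups received TNBS (trinitrobenzene sulfonic acid), a chemical hapten that provokes an acute, T cell-driven and neutrophil-rich colitis in rodents. One of these 4 groups received vehicle (its treatment label reads TNBS and its title TNBS_Vehicle), and the others received A1007 at 10, 30 or 90 mpk, the dose unit of the labels. The series describes YUQ-A1007 as an orally active agonist of AhR, the aryl hydrocarbon receptor, a ligand-activated transcription factor. All libraries carry batch 1, and some facts (age and sex of the mice, day of sampling, dosing schedule) were not given in the sources used here. No group received A1007 without TNBS, so a change at a dose is a change within TNBS-treated colon.

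Matrix metalloproteinases (MMPs) are zinc enzymes made as inactive precursors, which other proteases, plasmin among them, can switch on. Between them they cut collagens, elastin, proteoglycans, cytokines and their receptors. The ADAMTS proteases are secreted relatives with thrombospondin repeats, which cut large proteoglycans such as versican, trim procollagens or cut von Willebrand factor. TIMPs are small proteins that block the active site of MMPs, and Timp3 also blocks several ADAMTS and ADAM enzymes. In inflamed gut these proteins come from fibroblasts, macrophages, neutrophils and the epithelium. RNA levels say nothing of how much of each precursor was activated.

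Library totals ran from 14373337 to 20446967 counts over the 50 mice, and defining markers of colonic epithelium and of colonic smooth muscle were present in every group. In 8 libraries the summed level of 8 pancreatic acinar genes was above 100 CPM (counts scaled to each library's total): vehicle replicates 2, 5, 6 and 9, A1007 10 replicate 7, A1007 30 replicate 2 and A1007 90 replicates 2 and 4. The sum was 43000 CPM in vehicle replicate 6, and at most 5.74 CPM in sham. Vehicle replicates 5 and 9, which had the highest levels of many genes below, are among these 8. A1007 10 replicate 6 and A1007 30 replicate 1 stood apart by low Xist (0.935 and 1.79 CPM, against 141 CPM or more elsewhere), and A1007 10 replicates 3 and 8 by low Hoxd13 (3.39 and 1.57 CPM, against 18.7 CPM or more elsewhere). Counts were repeated without each of these sets of libraries, and many of the results that changed, though not all, are given with new values. No 2 libraries of a group agreed within sampling noise.

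In sham colon the inhibitors and a few membrane or stromal proteases made up most of the RNA of these genes. Levels here are the authors' FPKM (fragments per kilobase of exon, scaled to the library's total), which allow genes to be compared per length. Timp2 led with a median of 35.1 FPKM, followed by the membrane-type protease Mmp15 at 18.6, Timp3 at 12, the gelatinase Mmp2 at 11.5 and the membrane-type protease Mmp14 at 8.91. The ranges over mice of Timp2 and Mmp15 did not overlap each other or those of the genes below them, while the range of Timp3 (9.62 to 13.7 FPKM) overlapped that of Mmp2 (8.83 to 14), which in turn overlapped that of Mmp14 (7.37 to 9.43). The matrilysin Mmp7 came next at 6.55, with single mice between 3.09 and 15. Only 4 of the 46 genes had a median above 10 FPKM in sham and 17 had one above 1 FPKM, whereas in vehicle mice 8 and 27 did.

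Of the 6 genes that were not tested, Mmp1a had no count in any of the 50 mice and Mmp1b had 1 count in each of 2 mice. These are the mouse counterparts of human collagenase MMP1, and their sequences are closely related; how reads that map to both were treated is not given in the sources used here. Mmp20 (enamelysin, a tooth enzyme) reached at most 21 counts, Mmp21 3 counts and Adamts18 14 counts. Mmp27 reached 27 counts (0.73 FPKM) in vehicle replicate 6.

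TNBS raised most of these genes. Between vehicle and sham mice 27 of the 40 tested genes were higher and 2 lower at an adjusted p under 0.05 (edgeR quasi-likelihood test with Benjamini-Hochberg adjustment over all 17928 genes tested, which applies to every adjusted p below unless another tool is named). Over all tested genes the same rule called 31.7%, 18.2% as higher and 13.5% as lower. The median log2 fold change was 1.20 for the 40 genes and 0.02 for all tested genes. In 13 of the 40 genes every vehicle mouse lay above every sham mouse, and in none below; over all genes 2.99% separated upward and 1.08% downward. The p-values measure the spread between mice, and in bulk tissue a change in how many cells of a type are present cannot be told from a change in RNA per cell.

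**Figure D1:**
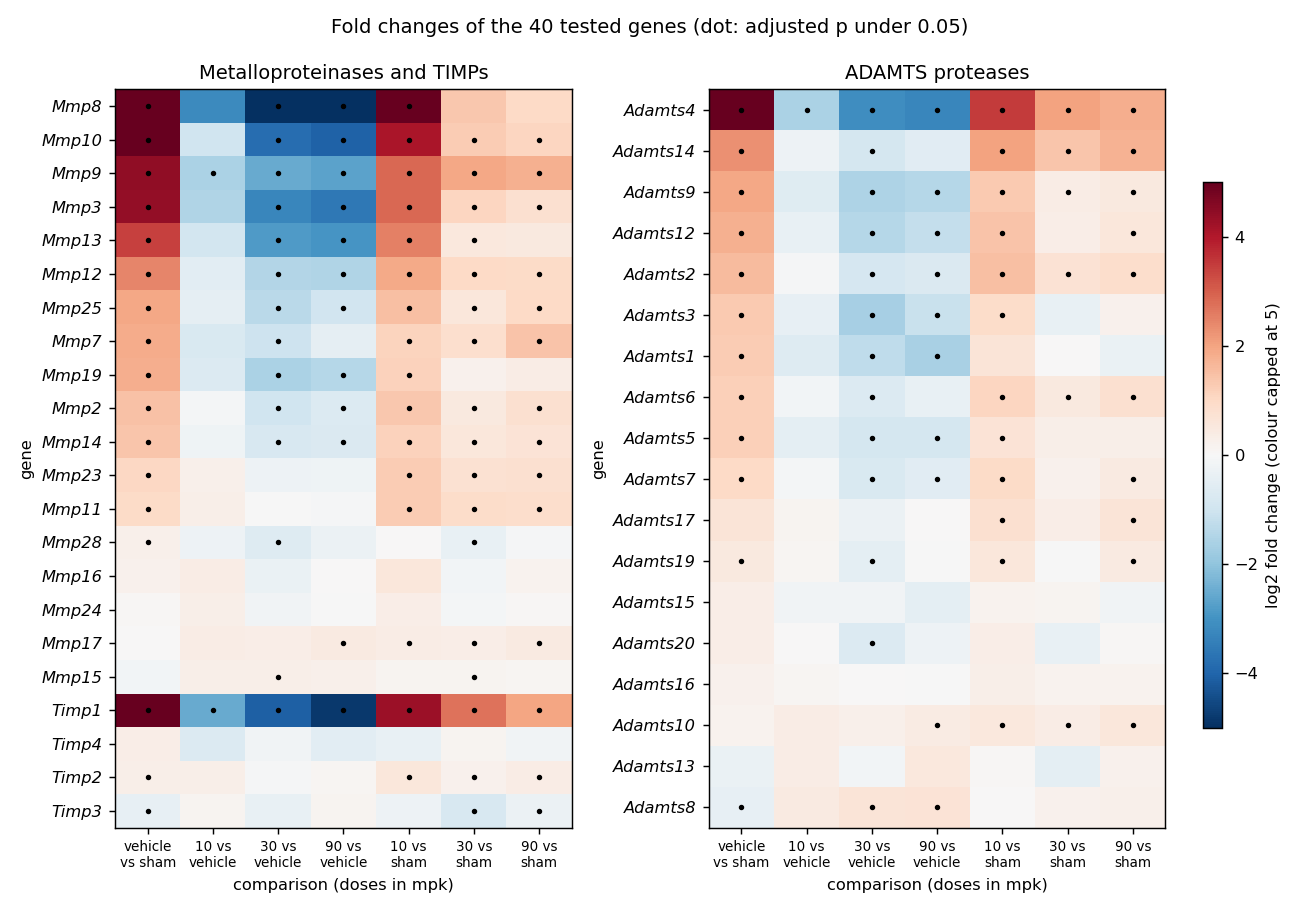
Log2 fold changes of the 40 tested genes (rows) in 7 comparisons (columns), in colour capped at 5, with a dot where the adjusted p was under 0.05. In the first column 27 genes are called higher and 2 lower; in the columns of 30 and 90 mpk against vehicle 25 and 19 are called lower.

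The collagenases and stromelysins, which cut fibrillar collagen and a broad range of matrix proteins, included the gene with the largest fold change, Mmp8. Mmp8, the collagenase of neutrophil granules, was at 0 to 0.14 FPKM in sham (median 0.01, with 5 of 10 mice at 0 counts). In vehicle mice it spanned 0.05 to 134.0 FPKM with a median of 5.59, and replicates 9 (134.0) and 5 (104.0) stood far above the next mouse at 8.86. The groups overlapped by 1 vehicle mouse, replicate 1 at 0.05 FPKM. The log2 fold change was 9.43 (95% interval 5.98 to 12.89, adjusted p = 0.000308), and its size is imprecise because the sham level was near 0; without vehicle replicate 9 it was 8.43. With quantile normalization the call was lost (adjusted p values over the alternatives ran from 4.63e-11 to 0.127).

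Mmp13, the other main collagenase of the mouse, went from 0.48 to 1.98 FPKM in sham (median 0.93) to 0.94 to 39.7 in vehicle (median 6.58), a 10.6-fold change (log2 fold change 3.40, SE 0.60, adjusted p = 0.000304). Mmp3 (stromelysin-1) had a median of 0.865 FPKM in sham (0.56 to 1.31) and of 6.46 in vehicle (1.6 to 72.1), and no vehicle mouse was as low as a sham mouse (log2 fold change 4.38, SE 0.69, adjusted p = 0.000111). Mmp10 (stromelysin-2), which can activate other MMP precursors as Mmp3 does, had a median of 0.66 FPKM in sham (0.47 to 1.29) and of 11.1 in vehicle (2.58 to 53.4). Its groups did not overlap either (log2 fold change 5.09, SE 0.62, adjusted p = 7.98e-06). In vehicle, replicates 2 and 7 were close together at the top for Mmp10 (53.4 and 53.0 FPKM), so that its high values did not rest on 1 mouse. Mmp11 (stromelysin-3), which unlike the others is switched on inside the cell by furin, rose 1.93-fold (adjusted p = 0.00147).

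**Figure D2:**
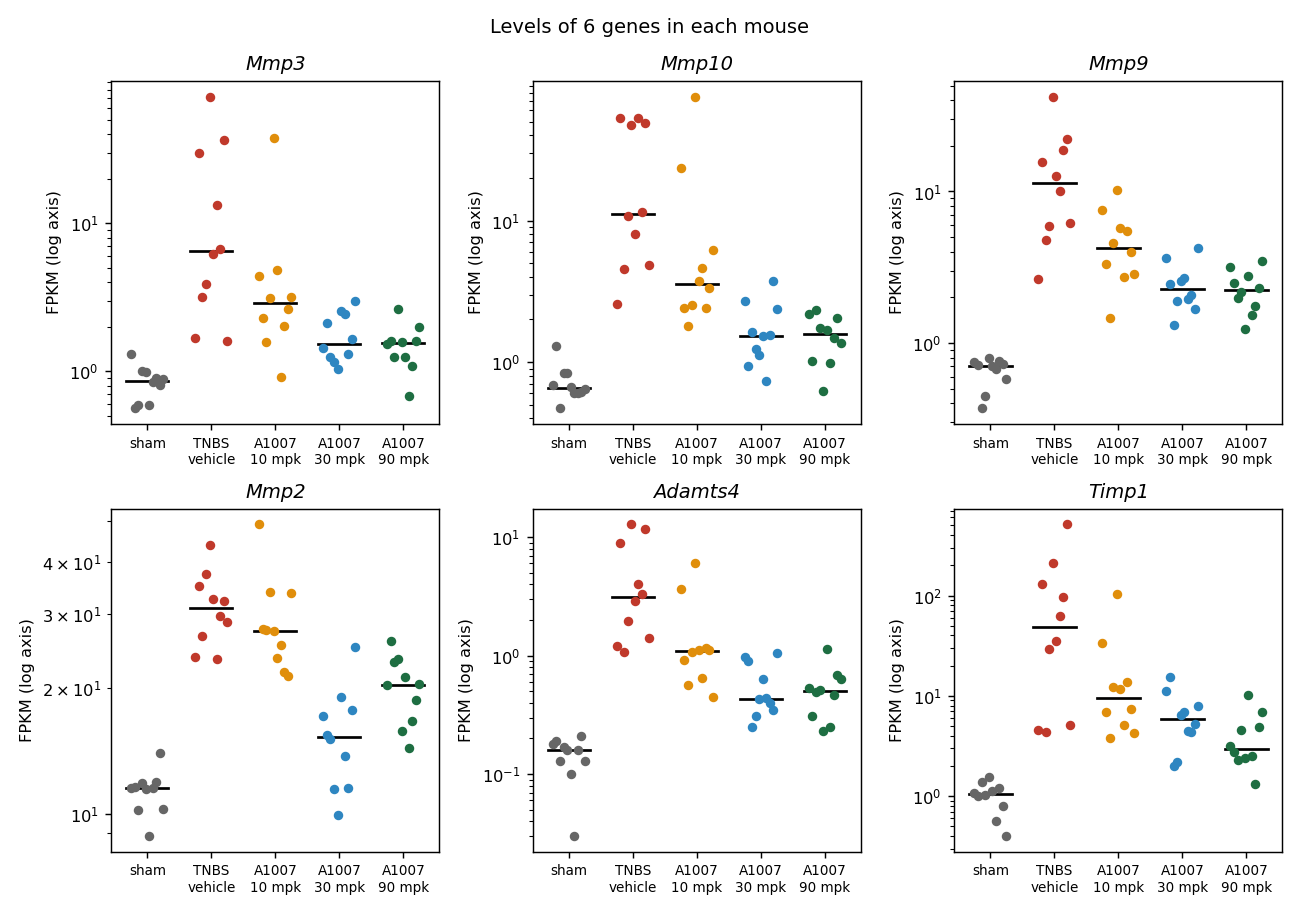
FPKM of 6 genes in each of the 50 mice (points, log axis) by group, with the group median as a line. Every vehicle mouse lies above every sham mouse in all 6 panels, and the 30 and 90 mpk medians lie below the vehicle median.

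Both gelatinases, named for their action on denatured collagen, rose in every vehicle mouse. Mmp9, abundant in neutrophils and macrophages, had a median of 0.71 FPKM in sham (0.37 to 0.8) and of 11.4 in vehicle (2.63 to 42.2), a 21.8-fold change (log2 fold change 4.44, SE 0.44, adjusted p = 8.24e-07). Mmp2, mainly a product of stromal cells, started much higher, at 8.83 to 14 FPKM (median 11.5), and reached 23.4 to 43.7 (median 30.9), a 2.78-fold change (adjusted p = 1.2e-08). The membrane-type protease Mmp14, which activates the Mmp2 precursor at the cell surface together with Timp2, moved in a similar way, from 7.37 to 9.43 FPKM (median 8.91) to 17.0 to 32.3 (median 22.0). Its log2 fold change was 1.38 (SE 0.08, adjusted p = 1.02e-09), and no vehicle mouse was as low as a sham mouse for any of these 3 genes. Within the membrane-type group 2 of 6 rose: Mmp14 and Mmp25, a leukocyte protease anchored to the membrane by a lipid. Mmp25 had a median of 0.145 FPKM in sham (0.11 to 0.18) and of 0.345 in vehicle (0.24 to 1.91, the top value in replicate 5), with log2 fold change 1.95 (adjusted p = 0.000304). The abundant Mmp15 was at a median of 18.6 FPKM in sham and 15.9 in vehicle (log2 fold change -0.15, 95% interval -0.34 to 0.03, adjusted p = 0.194).

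Mmp12, the elastase of macrophages, had a median of 0.26 FPKM in sham (0.13 to 0.72) and of 0.91 in vehicle (0.11 to 5.78). Vehicle replicate 7 was highest, the groups overlapped, and the log2 fold change was 2.44 (SE 0.54, adjusted p = 0.00197). Mmp7, an epithelial protease that in mice also activates the defensins of Paneth cells, rose from a median of 6.55 FPKM to 25.2 (log2 fold change 1.87, SE 0.35, adjusted p = 0.00043). Of the remaining MMPs Mmp19 rose 3.52-fold (adjusted p = 0.000343), Mmp23 2.06-fold (1.88e-05) and Mmp28 (epilysin) 1.2-fold (0.0242). The call for Mmp28 was lost under 5 of 8 alternatives, among them quantile normalization and the exact rank-sum test.

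Among cells that make these proteases, markers of neutrophils, macrophages and fibroblasts rose in the same comparison, and those of colonic epithelium did not. Of the 10 colonic epithelium genes 0 were called higher and 3 lower. Their summed level had a median of 21711.8 CPM in sham and 17030.5 in vehicle. The summed level of 10 neutrophil genes was 23.0 to 56.0 CPM in sham and 35.6 to 4492.8 in vehicle, highest in replicate 9, the mouse highest for Mmp8 and Timp1, and all 7 tested of these genes rose. In sham 7 of the 10, S100a8, S100a9, Cxcr2 and Mpo among them, stayed under 1 CPM in every mouse. Genes that low in sham can pass the count filter through the TNBS groups alone. The count of neutrophil genes that rose, or that later fell from vehicle, is therefore not independent of the filter. All 10 macrophage genes rose (summed level at most 477.0 CPM in sham and 574.0 to 1621.5 in vehicle), as did 7 of 8 fibroblast genes (583.0 to 929.0 CPM, then 1629.9 to 3730.4). Squamous epithelial genes, 6 in all, were at 0.685 to 2.37 CPM in sham and 4.97 to 97.1 in vehicle, again highest in replicate 9. The part of these cell types in the rise of the proteases was not tested.

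Among the ADAMTS proteases 11 of 18 tested genes rose and 1 fell. The group that cuts versican, aggrecan and related proteoglycans held both the largest rise and the fall. Adamts4, an aggrecanase, was at 0.03 to 0.21 FPKM in sham (median 0.16) and 1.08 to 12.8 in vehicle (median 3.12), with every vehicle mouse above every sham mouse. Its log2 fold change was 5.12 (SE 0.55, adjusted p = 1.86e-06). Adamts9, which also trims versican, went from 0.32 to 0.76 FPKM (median 0.47) to 0.99 to 4.66 (median 1.42) with no overlap (log2 fold change 1.93, SE 0.27, adjusted p = 3e-05). Adamts1 and Adamts5 rose 2.44-fold and 2.3-fold (adjusted p = 0.0106 and 0.000949). The call for Adamts1 was lost under 4 of 8 alternatives, one of them leaving out the 4 vehicle libraries high in acinar genes. Adamts8 was at 1.2 to 1.81 FPKM in sham (median 1.48) and 0.57 to 1.69 in vehicle (median 1.02), with log2 fold change -0.42 (adjusted p = 0.0384). That call was lost when any 1 of 11 single mice was left out and without those 4 libraries. It was also lost with no filter on low counts and with the replicate number as a block.

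The 3 procollagen N-proteinases, which trim the amino-terminal propeptide so that collagen can form fibrils, all rose. Adamts2, the main enzyme for type I and III procollagen, went from 1.06 to 1.99 FPKM (median 1.5) to 2.54 to 6.26 (median 4.17), with log2 fold change 1.59 (SE 0.16, adjusted p = 6.8e-07). Adamts14, far less abundant, went from 0.04 to 0.19 FPKM (median 0.085) to 0.26 to 0.83 (median 0.355; log2 fold change 2.29, SE 0.30, adjusted p = 1.17e-05). Neither gene's groups overlapped. Adamts3 rose 2.49-fold (adjusted p = 0.00472) from a sham median of 0.095 FPKM. Messages of their collagen substrates rose in the same mice, as given further on.

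Adamts7 and Adamts12 form a pair of related proteases that cut cartilage oligomeric matrix protein. Adamts12 went from 0.13 to 0.51 FPKM (median 0.36) to 0.75 to 1.47 (median 1.04; log2 fold change 1.78, SE 0.22, adjusted p = 4.13e-06). Adamts7 went from 0.52 to 0.69 FPKM (median 0.575) to 0.74 to 1.59 (median 1.17; log2 fold change 1.01, SE 0.12, adjusted p = 3.4e-06). Both were higher in every vehicle mouse than in any sham mouse, although Adamts7 overlaps Tbc1d2b on the opposite strand (35.3 CPM); no strand setting is given, so reads of overlapping genes cannot be told apart there. Adamts19 rose from a median of 0.375 FPKM (0.28 to 0.43) to 0.53 (0.31 to 0.67; log2 fold change 0.48, adjusted p = 0.00566), and Adamts6 rose 2.31-fold. Adamts13, the von Willebrand factor protease made mainly in liver, was at 0.06 to 0.26 FPKM in sham and 0.06 to 0.22 in vehicle (adjusted p = 0.359). Adamts10, Adamts15, Adamts16, Adamts17 and Adamts20 did not pass the test, with log2 fold changes from 0.17 to 0.66.

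Of the 4 inhibitors 2 rose, 1 fell and 1 did not pass the test. Timp1, an inducible secreted inhibitor, went from 0.4 to 1.56 FPKM in sham (median 1.06) to 4.33 to 513.0 in vehicle (median 48.5), and the groups did not overlap. The 114.0-fold change (log2 fold change 6.84, SE 0.96, adjusted p = 3.79e-05) was the second largest of the 40 genes after Mmp8, and the log2 fold change was 5.92 without vehicle replicate 9. Timp2, the most abundant in sham, rose from a median of 35.1 FPKM (30.6 to 38.9) to 43.9 (31.6 to 51.9; log2 fold change 0.28, 95% interval 0.11 to 0.44, adjusted p = 0.0115). Timp3, which is bound to the matrix, fell from a median of 12 FPKM (9.62 to 13.7) to 8.97 (4.15 to 12.6; log2 fold change -0.40, 95% interval -0.65 to -0.15, adjusted p = 0.015), a call that was lost when all 50 mice shared 1 fit. Timp4 had a median of 0.715 FPKM in sham (0.35 to 1.33) and of 0.61 in vehicle (0.13 to 3.66, the top value in replicate 6), with adjusted p = 0.592. Timp4 lies within Syn2 on the opposite strand (12.1 CPM), and Timp1 and Timp3 overlap Syn1 and Syn3 in the same way.

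The make-up of the TIMP messages differed between sham and vehicle mice. Timp1 held a median of 1.98% of the summed TIMP FPKM in sham mice (0.857 to 3.61) and 47.6% in vehicle mice (7.37 to 92.7), while Timp2 went from 72.6% to 41.0% and Timp3 from 23.8% to 9.65%. The ranges of the Timp1 share did not overlap between those groups. Summed TIMP FPKM had a median of 48.5 in sham (42.7 to 53.6) and of 102.0 in vehicle (56.2 to 553.0). At 10, 30 and 90 mpk the Timp1 share had medians of 13.4% (5.66 to 70.2), 10.5% (4.0 to 23.4) and 4.67% (2.98 to 17.7), and the summed TIMP FPKM medians of 73.9, 53.0 and 57.6. The shares are given as a description, with no test of their own.

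**Figure D3:**
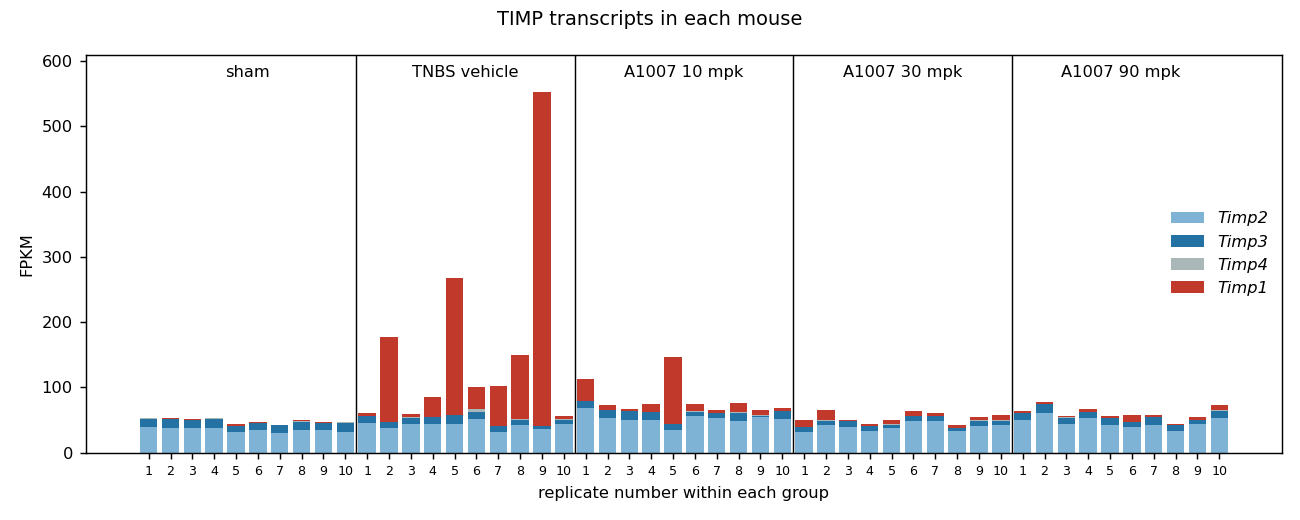
FPKM of Timp2, Timp3, Timp4 and Timp1, stacked, in each of the 50 mice by group. Vehicle replicate 9 reaches 553.0 FPKM in all, most of it Timp1, while in sham mice the sum lies between 42.7 and 53.6 FPKM.

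Of the 46 genes, 13 lie on chromosome 9, and 10 of these form 1 cluster between positions 7272514 and 7699586 (GRCm39, 427.0 kb): Mmp13, Mmp12, Mmp1b, Mmp3, Mmp1a, Mmp10, Mmp8, Mmp27, Mmp20 and Mmp7, in that order. All 6 tested genes of the cluster rose in vehicle mice, with log2 fold changes from 1.87 (Mmp7) to 9.43 (Mmp8). The other 3 genes listed within the span were not tested because of low counts. Of the 6 nearest tested genes outside it, Tmem123 (0.40, SE 0.09, adjusted p = 0.00133) and the apoptosis inhibitor gene Birc3 (0.49, SE 0.10, adjusted p = 0.00104) rose, while Dcun1d5, Dync2h1, Pdgfd and Birc2 had log2 fold changes of -0.27 to 0.19 and did not pass the test.

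**Figure D4:**
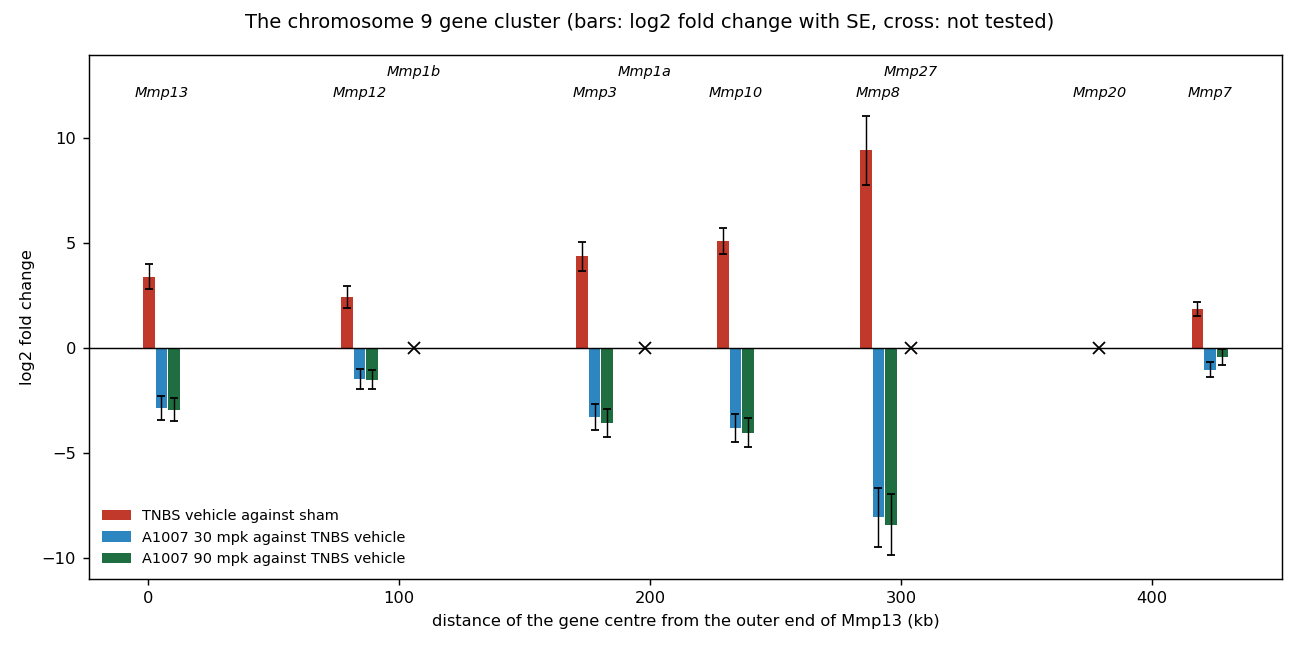
Log2 fold change (bars, with SE) of the genes of the chromosome 9 cluster against their distance from the outer end of Mmp13 in kb, for vehicle against sham and for 30 and 90 mpk against vehicle; a cross marks a gene not tested. All 6 tested genes have a positive bar in vehicle against sham and negative bars at both doses, with the smallest bars at Mmp7.

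Most genes of the cluster also had a promoter motif in common. RefSeq promoter windows (GRCm38.p6, from 250 bases before to 50 after the start) were at hand for 32 of the 46 genes, in 35 windows. Sites for AP-1, the dimer of Fos and Jun proteins that responds to cytokine and growth factor signals, were searched for as TGANTCA, where N is any base. Read on both strands, this motif was in a window of 8 of the 32 genes (25%) and in 7.81% of all 32851 windows. Here and for the 2 motifs below, a gene counts if any of its windows holds the motif, while the share over all is per window. All 8 genes belong to the cluster: Mmp10, Mmp12, Mmp13, Mmp1a, Mmp1b, Mmp20, Mmp3 and Mmp7. The match read TGAATCA in Mmp20, and TGACTCA or TGAGTCA in the others. It lay 35 bases before the start of Mmp13, 44 before the second listed start of Mmp12, 46 before that of Mmp3, and 63 before those of Mmp10 and Mmp7 (the first of its 2 starts). Of the 10 cluster genes, Mmp8, the gene with the largest fold change, and Mmp27 had none in their windows. Of the 19 genes that rose and had a window, 5 held the motif. The stretches before these starts are shown because the shared motif and its distance from the start can be read from them, with Mmp8 for contrast; they run 5′ to 3′ toward the gene, in lower case with the AP-1 match in capitals.
Mmp13 promoter, chr9:7272364-7272513, + strand: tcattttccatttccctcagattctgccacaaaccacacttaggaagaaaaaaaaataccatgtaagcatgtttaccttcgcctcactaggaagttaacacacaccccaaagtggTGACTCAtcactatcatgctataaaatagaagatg
Mmp12 promoter, chr9:7347224-7347373, + strand: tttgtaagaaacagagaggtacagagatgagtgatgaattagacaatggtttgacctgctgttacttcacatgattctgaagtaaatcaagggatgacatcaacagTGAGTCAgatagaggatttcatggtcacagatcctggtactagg
Mmp3 promoter, chr9:7445672-7445821, + strand: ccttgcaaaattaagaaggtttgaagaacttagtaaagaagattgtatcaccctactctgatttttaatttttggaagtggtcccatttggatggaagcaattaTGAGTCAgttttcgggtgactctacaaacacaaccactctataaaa
Mmp10 promoter, chr9:7502192-7502341, + strand: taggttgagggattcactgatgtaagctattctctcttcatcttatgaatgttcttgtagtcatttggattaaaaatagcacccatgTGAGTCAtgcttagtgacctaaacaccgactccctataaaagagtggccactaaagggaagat
Mmp7 promoter, chr9:7691940-7692089, + strand: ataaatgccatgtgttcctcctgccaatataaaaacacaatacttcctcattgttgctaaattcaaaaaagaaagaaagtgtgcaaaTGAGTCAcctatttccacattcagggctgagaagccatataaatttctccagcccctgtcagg
Mmp8 promoter, chr9:7558279-7558428, + strand: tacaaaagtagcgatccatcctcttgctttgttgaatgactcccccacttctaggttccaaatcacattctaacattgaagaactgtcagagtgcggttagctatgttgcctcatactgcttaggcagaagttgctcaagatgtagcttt

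A loose NF-kB motif (GGG, any 5 bases, CC, read on both strands) was in the windows of 23 of the 32 genes (71.9%) and in 50.8% of all windows, and the core of the element bound by the aryl hydrocarbon receptor (GCGTG, both strands) in 12 of 32 (37.5%) and 32.4%. These 2 motifs are short or loose, and a match is only a run of letters. Timp1, Timp2 and Timp3 held both motifs, and none of the 4 TIMPs held the AP-1 motif in these windows. Mmp13, Mmp3 and Mmp10 held the AP-1 motif and neither of the others.

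At 10 mpk few of these genes differed from vehicle. None was higher and 3 of 40 were lower, while 5.75% of all tested genes were called, 2.91% as lower and 2.83% as higher; the median log2 fold change was -0.19, and -0.00 over all genes. Timp1 fell to a median of 9.48 FPKM (3.82 to 103.0; log2 fold change -2.53, SE 0.69, adjusted p = 0.0275), Mmp9 to 4.27 (1.47 to 10.3; -1.58, SE 0.35, adjusted p = 0.00796) and Adamts4 to 1.10 (0.45 to 6.01; -1.60, SE 0.46, adjusted p = 0.0349). None of the 40 genes had groups that did not overlap, and of all genes 0.0167% lay below vehicle in every mouse. Mmp8 was at 0.05 to 25.9 FPKM (median 0.225) with log2 fold change -3.19 (adjusted p = 0.0519).

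The 3 calls at 10 mpk were lost under some of the alternatives. All 3 were lost with the exact rank-sum test, in a fit of the 2 groups alone, and without the 8 libraries high in acinar genes. Those settings called 0, 4 and 33 of all tested genes, against 1030 in the main fit. Those losses therefore do not set the 3 genes apart from other genes. The calls for Timp1 and Adamts4 were also lost without vehicle replicate 5 or 9 (512 and 1119 calls over all genes). The log2 fold change of Timp1 was -1.64 without vehicle replicate 9, and -3.41 without A1007 10 replicate 5. A1007 10 replicate 5 was the highest mouse of its group for 10 of the 40 genes, with 37.8 FPKM of Mmp3 (the next mouse had 4.83), 32.0 of Mmp13 (next 5.84), 75.1 of Mmp10 (next 23.6), 25.9 of Mmp8 (next 3.77) and 103.0 of Timp1 (next 33.5). Without that mouse 15 of the 40 genes were called, 10 lower and 5 higher, and calls over all tested genes rose from 1030 to 2436. The same mouse had the highest neutrophil sum of its group (630.0 CPM, group median 75.8) and the highest squamous sum (54.7 CPM). Leaving out vehicle replicate 10 gave 10 calls (1402 over all genes) and vehicle replicate 1 gave 7 (1473). Without A1007 10 replicate 6, 7 or 9 1 call was left in each case (562, 494 and 591 over all genes).

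At 30 mpk 25 of the 40 genes were lower than in vehicle and 2 higher. Over all tested genes 31.4% were called, 17.9% as lower and 13.5% as higher, and the median log2 fold change was -0.79 for the 40 genes and -0.02 for all. Both tested collagenases fell: Mmp8 to 0 to 0.32 FPKM (median 0.085; log2 fold change -8.07, 95% interval -10.94 to -5.21, adjusted p = 8.49e-05) and Mmp13 to 1.0 to 2.4 (median 1.34; -2.85, SE 0.56, adjusted p = 0.000271). The call for Mmp8 was lost with quantile normalization (adjusted p = 0.0532). Mmp3 fell to a median of 1.53 FPKM (1.04 to 2.99; -3.28, SE 0.64, adjusted p = 0.00025) and Mmp10 to 1.54 (0.74 to 3.71; -3.79, SE 0.67, adjusted p = 8.64e-05). Mmp11, by contrast, was at a median of 1.91 FPKM against 1.77 in vehicle (-0.01, 95% interval -0.39 to 0.37).

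Both gelatinases fell at 30 mpk, Mmp9 to 1.31 to 4.21 FPKM (median 2.25; log2 fold change -2.51, SE 0.36, adjusted p = 8.61e-06) and Mmp2 to 9.93 to 25 (median 15.3; -0.98, SE 0.15, adjusted p = 1.29e-05). Mmp14 fell to 10.2 to 16.2 FPKM (median 12.9), below every vehicle mouse (-0.80, SE 0.12, adjusted p = 1.76e-05). Adamts4 (0.25 to 1.05 FPKM, median 0.435), Adamts9 (0.42 to 0.88, median 0.62) and Adamts12 (0.14 to 0.61, median 0.425) likewise lay below every vehicle mouse, with log2 fold changes of -3.10, -1.53 and -1.43. These were the 4 of 40 genes that separated downward from vehicle at this dose, while 0.563% of all genes did. Timp1 fell to 2.02 to 15.3 FPKM (median 5.87; -4.10, SE 0.75, adjusted p = 0.000138), a call that the exact rank-sum test did not make (adjusted p = 0.0698); without vehicle replicate 9 the log2 fold change was -3.21, and that of Mmp8 -7.08.

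Mmp12 fell to a median of 0.56 FPKM (0.24 to 0.82, log2 fold change -1.46, adjusted p = 0.0172), but not without vehicle replicate 7, the highest mouse for this gene. Its call was also lost with quantile normalization, limma on FPKM, the exact rank-sum test and the replicate number as a block. Mmp25 fell to 0.195 FPKM (0.14 to 0.31; -1.35, adjusted p = 0.00152), Adamts2 to 2.38 (1.63 to 3.58; -0.84, adjusted p = 0.000245), Adamts14 to 0.25 (0.16 to 0.35; -0.89, adjusted p = 0.0117), Adamts7 to 0.65 (0.36 to 1.08; -0.78, adjusted p = 0.00097) and Adamts19 to 0.37 (0.23 to 0.45; -0.47, adjusted p = 0.0149). Mmp7, Mmp19, Mmp28, Adamts1, Adamts3, Adamts5, Adamts6 and Adamts20 make up the rest of the 25, with log2 fold changes from -0.65 to -1.67. The 2 genes that rose were Adamts8, to a median of 1.7 FPKM (0.99 to 2.42; 0.63, adjusted p = 0.00331), and Mmp15, to 19.8 (0.31, adjusted p = 0.015). Timp2, Timp3 and Timp4 did not pass the test at this dose against vehicle (adjusted p = 0.676, 0.102 and 0.724). Without the 8 libraries high in acinar genes 20 genes were lower and none higher, while 5584 of all tested genes were called, against 5625 with them. Mmp7, Mmp15, Mmp25, Adamts1, Adamts5, Adamts8 and Adamts14 lost their calls.

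At 90 mpk 19 genes were lower than in vehicle and 3 higher, with 18.2% of all tested genes called (11.1% lower, 7.12% higher) and median log2 fold changes of -0.54 for the 40 genes and -0.01 for all. Mmp8 was at 0 to 0.16 FPKM (median 0.06; log2 fold change -8.42, 95% interval -11.35 to -5.48, adjusted p = 0.000115; -7.43 without vehicle replicate 9, and not called with quantile normalization), Mmp13 at 0.66 to 2.07 (median 1.36; -2.93, SE 0.56, adjusted p = 0.000329) and Mmp3 at 0.68 to 2.63 (median 1.56; -3.57, SE 0.65, adjusted p = 0.000179). Mmp10 was at 0.62 to 2.34 FPKM (median 1.58), below every vehicle mouse (-4.03, SE 0.68, adjusted p = 8.77e-05). Adamts9 (0.54 to 0.87 FPKM, median 0.725; -1.42) and Adamts12 (0.3 to 0.64, median 0.515; -1.20) also lay below every vehicle mouse. These were 3 of 40 genes, against 0.312% of all genes.

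Timp1 at 90 mpk was at 1.32 to 10.2 FPKM (median 2.96; log2 fold change -4.84, SE 0.79, adjusted p = 6.22e-05, and -3.94 without vehicle replicate 9), Mmp9 at 1.24 to 3.46 (median 2.24; -2.67, SE 0.36, adjusted p = 1.17e-05), Mmp14 at 11 to 17.2 (median 14.5; -0.71, SE 0.12, adjusted p = 0.000112) and Adamts4 at 0.23 to 1.14 (median 0.5; -3.27, SE 0.50, adjusted p = 3.28e-05). Mmp2 was at 14.3 to 25.9 FPKM (median 20.3; -0.68, SE 0.15, adjusted p = 0.00105). The 3 genes that rose were Adamts8 (median 1.81 FPKM; 0.67, adjusted p = 0.00328), the membrane-type protease Mmp17 (1.82 FPKM; 0.45, adjusted p = 0.029) and Adamts10, which binds fibrillin microfibrils (3.63 FPKM; 0.41, adjusted p = 0.0185). Mmp7 had a median of 15.5 FPKM with a wide range (9.48 to 49.7), log2 fold change -0.43 and adjusted p = 0.458. Timp2, Timp3 and Timp4 did not pass the test here either (adjusted p = 0.566, 0.699 and 0.342).

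Of the 22 calls at 90 mpk 12 were lost without the 8 libraries high in acinar genes, 4 of which are vehicle mice. Without them 10 of 40 genes were called, all lower, and Mmp2, Mmp3, Mmp12, Mmp17, Mmp25, Adamts1, Adamts2, Adamts3, Adamts5, Adamts7, Adamts8 and Adamts10 lost their calls. The adjusted p of Mmp3 then was 0.0658, and that of Mmp2 0.055. The comparison without those libraries has 6 vehicle mice and 8 mice at 90 mpk. Its calls over all tested genes went from 3266 to 681, so the loss was not confined to the genes described here. The part of pancreatic tissue in the values was not tested.

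Of the genes called both in vehicle against sham and at a dose against vehicle, none had the same direction in the 2 comparisons. The comparisons with sham and with vehicle share the vehicle mice, so a high vehicle group moves both. The comparison of each dose with sham shows where the levels stood.

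**Figure D5:**
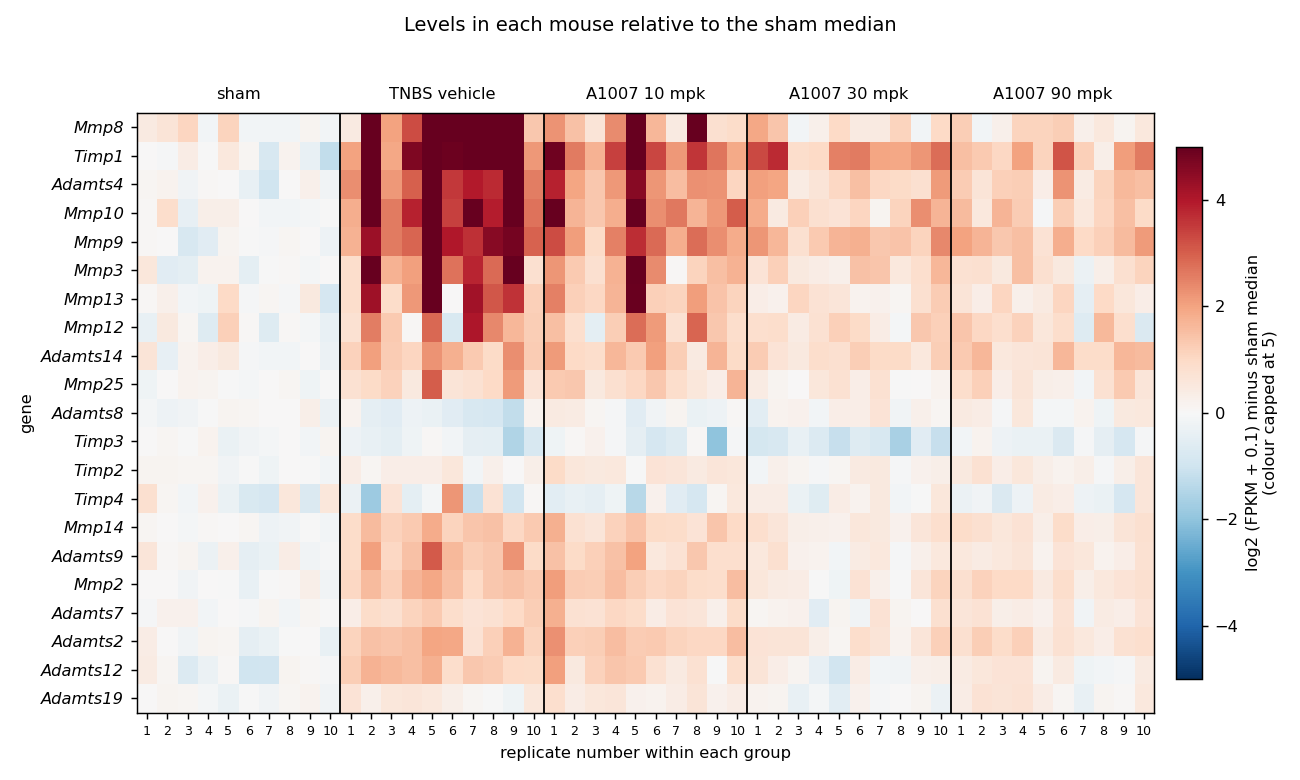
Level of 21 genes (rows) in each of the 50 mice (columns), as log2 of FPKM + 0.1 minus the sham median, in colour capped at 5. Vehicle replicates 2, 5 and 9 and A1007 10 replicate 5 are the darkest columns in the upper rows, and the upper rows are pale but mostly above 0 at 30 and 90 mpk.

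Against sham, 28 of 40 genes were higher and none lower at 10 mpk, where 36% of all tested genes were called, 21.3% as higher and 14.7% as lower. At 30 mpk 21 were higher and 2 lower (59% of all genes called, 30.3% as higher and 28.7% as lower), and at 90 mpk 23 were higher and 1 lower (45.2% of all genes called, 23.4% as higher and 21.9% as lower). At 30 mpk the called share of the 40 genes, 57.5%, was no higher than the background, and at 90 mpk it was 60%. Median log2 fold changes of the 40 genes were 1.00, 0.34 and 0.48 at 10, 30 and 90 mpk.

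Several genes were still above sham at the 2 higher doses. Mmp9 was 3.78-fold higher at 30 mpk (adjusted p = 4.28e-08) and 3.4-fold at 90 mpk (2.16e-07), Adamts4 4.01-fold (4.46e-06) and 3.56-fold (1.87e-05), and Timp1 6.57-fold (1.07e-06) and 3.94-fold (5.3e-05), the last a call that was lost with all 50 mice in 1 fit. Every mouse at 30 mpk was above every sham mouse for Mmp9, Mmp14, Adamts4 and Timp1, and at 90 mpk for Mmp2, Mmp9, Mmp14 and Adamts4; among all genes 5.08% and 1.96% separated upward. At 10 mpk every mouse was above every sham mouse for 12 genes, against 2.12% of all genes. None of the 40 lay below every sham mouse at 90 mpk, while 1.43% of all genes did. Mmp8, in contrast, did not differ at the threshold from sham at 30 mpk (log2 fold change 1.33, 95% interval -0.11 to 2.77, adjusted p = 0.104) or at 90 mpk (0.98, -0.36 to 2.33, adjusted p = 0.225); both intervals hold increases of more than 2 on the log2 scale.

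Mmp11 and Mmp23 stayed up at every dose. Mmp11 was 2.38-fold, 1.9-fold and 1.83-fold above sham at 10, 30 and 90 mpk (adjusted p = 1.36e-05, 6.9e-05 and 0.000155) and Mmp23 2.42-fold, 1.71-fold and 1.77-fold (4.82e-05, 1.09e-05 and 2e-05), while neither passed the test at any dose against vehicle. Adamts14 was 4.02-fold, 2.61-fold and 3.29-fold above sham. Timp2 was 1.48-fold, 1.15-fold and 1.28-fold above sham (adjusted p = 4.51e-05, 0.02 and 0.000632); the call at 30 mpk was lost with limma on FPKM, the exact rank-sum test and the replicate block. Mmp11 overlaps Chchd10 on the opposite strand, which was at a mean of 95.4 CPM against 5.43 CPM for Mmp11, and its reads cannot be told apart from those where they overlap.

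Timp3 had the lowest log2 fold change of the 40 genes at 30 mpk against sham. It had a median of 6.89 FPKM at 30 mpk (3.86 to 9.33), below every sham mouse, with log2 fold change -0.79 (95% interval -1.03 to -0.56, adjusted p = 4.59e-06); 4.81% of all genes separated downward in this way. At 90 mpk it had a median of 9.85 FPKM (6.64 to 13.6; -0.29, adjusted p = 0.0274), a call that was lost with no filter on low counts, with quantile normalization and in a fit of all 50 mice. At 10 mpk it was at 2.87 to 13.8 FPKM (median 10.9; -0.27, adjusted p = 0.251). Mmp28 was the other gene lower than sham at 30 mpk (-0.39, adjusted p = 0.00958).

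Between doses, 30 mpk differed from 10 mpk in 9 of 40 genes, all lower at 30 mpk, where 2.01% of all tested genes were called. These were Mmp10 (log2 fold change -2.80, SE 0.65, adjusted p = 0.0202), Mmp13 (-1.95, SE 0.55, adjusted p = 0.0497), Adamts12 (-1.07, SE 0.22, adjusted p = 0.00619), Adamts9 (-0.92, SE 0.22, adjusted p = 0.0222), Mmp2 (-0.87, SE 0.15, adjusted p = 0.00126), Adamts2 (-0.77, SE 0.17, adjusted p = 0.00978), Adamts7 (-0.70, SE 0.17, adjusted p = 0.0252), Mmp14 and Adamts19 (both -0.58, adjusted p = 0.00973 and 0.0321). Mmp2 had medians of 27.4 FPKM at 10 mpk (21.4 to 49.1) and 15.3 at 30 mpk (9.93 to 25), and Adamts2 of 3.69 (3.16 to 7.71) and 2.38 (1.63 to 3.58). Only Mmp2, Mmp14, Adamts2 and Adamts12 of the 9 kept the call under every alternative and with every mouse left out in turn. Without A1007 10 replicate 5 the calls for Mmp10 (then -1.65) and Mmp13 (-0.98) were lost, as was that for Adamts7 without A1007 10 replicate 1, whose 2.2 FPKM was the highest of its group. The number called rose to 15 without A1007 10 replicate 7 and to 18 without replicate 9. Over all tested genes it rose from 361 to 632 and 1405.

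At 90 mpk against 30 mpk none of the 40 genes was called with edgeR, where 0.368% of all genes were. An unadjusted edgeR p under 0.05 was found for 5 of the 40 and for 3428 of all 17928 tested genes. DESeq2 called 0 of the 40 and 224 of all genes, and the exact rank-sum test 1 and 2763. The main fit used all 40 TNBS mice, while a fit of the 2 groups alone called 2 of the 40 and 3072 of all genes. Most intervals are wide enough to hold sizeable differences in either direction, such as -1.58 to 1.11 for Mmp10 and -2.22 to 0.75 for Timp1 on the log2 scale. For Mmp14 the interval was -0.16 to 0.34 and for Mmp2 0.00 to 0.59. At 90 mpk against 10 mpk 1 gene was called, Mmp10 (-3.04, SE 0.66, adjusted p = 0.0457), where 0.1% of all genes were, 0.0669% as lower and 0.0335% as higher. That call was lost without A1007 10 replicate 1 or 5 (-1.88 without 5) and without any 1 of the 10 mice at 90 mpk. In this comparison 18 of the 40 and 1955 of all tested genes had an unadjusted edgeR p under 0.05.

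The spread between mice was itself larger in vehicle and at 10 mpk. The median coefficient of variation of FPKM over the 40 genes was 0.282 in sham, 0.452 in vehicle, 0.413 at 10 mpk, 0.282 at 30 mpk and 0.267 at 90 mpk. Over all tested genes it was 0.127, 0.243, 0.24, 0.163 and 0.145 in the same order. Among the 10 vehicle mice replicate 5 had the highest level of 17 of the 40 genes, Mmp2, Mmp3, Mmp9, Mmp13, Mmp14 and Adamts4 among them, and replicate 10 of 5. At 10 mpk replicate 1 was highest for 16 genes, among them Mmp2, Mmp14, Adamts2 and Adamts12, and replicate 5 for the 10 genes that include Mmp3, Mmp8, Mmp9 and Timp1. The fibroblast marker sum was also highest in A1007 10 replicate 1 (3881.5 CPM, group median 1777.3). The part of cell composition in these differences was not tested.

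The median neutrophil, macrophage and fibroblast marker sums at the doses lay between those of sham and vehicle. Of the 7 tested neutrophil genes 4, 6 and 7 were lower than in vehicle at 10, 30 and 90 mpk, and the highest neutrophil sum was 81.1 CPM at 30 mpk and 72.7 at 90 mpk. Elane, a granule protease of immature neutrophils, stayed under 1 CPM in every mouse of all 5 groups, sham and vehicle included. Its 0 counts in all mice at 10 and 30 mpk therefore say little about a change. Of the 10 macrophage genes 4, 8 and 10 were lower, and of the 8 fibroblast genes 0, 5 and 5. The fibroblast sum had medians of 1777.3, 1278.1 and 1345.4 CPM at the doses, against 789.0 in sham and 2031.2 in vehicle. Whether these cell types carried the fall of the proteases was not tested.

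Other genes of the same proteolytic system, from lists chosen with earlier results of these data known, are given by counts. Of 15 tested genes of the plasmin system and MMP regulators 12 rose and 2 fell in vehicle against sham (median log2 fold change 1.06). Among those with the smallest p were Plau (urokinase, 0.99), A2m (a broad protease inhibitor, 5.03) and Plat (tissue plasminogen activator, 2.11). The 2 that fell, named after their values were seen, were the plasmin inhibitor Serpinf2 (-1.01) and Reck (-0.29), a membrane-anchored inhibitor of MMPs. Against vehicle 5, 12 and 10 of the 15 fell at 10, 30 and 90 mpk, Plat with log2 fold changes of -1.73 and -1.86 at 30 and 90 mpk, and Reck rose at 10 mpk (0.53, adjusted p = 0.0116) and 90 mpk (0.41, adjusted p = 0.0172).

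Of 12 tested relatives of these enzymes in the wider metzincin group 8 rose and 2 fell in vehicle. Adam19 (1.26), Bmp1 (the procollagen C-proteinase, 1.23), Adam12 (2.46) and Adam8 (3.24) had the smallest p, and the 2 that fell, again named after their values were seen, were the meprin subunits of the epithelial brush border, Mep1a (-0.76) and Mep1b (-0.54). At 30 and 90 mpk 7 and 7 of the 12 were lower than in vehicle, Adam8 by 2.77 and 2.57. Of 7 tested ADAMTS-like genes, which lack the protease domain, none was called with edgeR in vehicle against sham. An unadjusted p under 0.05 was found for 3 of the 7 and for 7739 of all 17928 tested genes, a like share. At 30 mpk against vehicle 3 of the 7 were called lower, as were 17.9% of all genes.

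Genes of the matrix proteins that these enzymes cut rose in 11 of 13 cases in vehicle (median log2 fold change 2.08), and none fell. Elastin (Eln) rose by 2.42, the basement membrane collagens Col4a1 and Col4a2 by 2.08 and 1.82 and the fibrillar collagen Col1a2 by 2.19. Against vehicle 1, 10 and 10 of the 13 fell at 10, 30 and 90 mpk, among them Col1a2 by 1.02 and 1.04 and Col4a1 by 1.16 and 1.00 at 30 and 90 mpk. Col1a1 and Dcn are in both this list and the fibroblast list.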

How the data were processed

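The deposited table holds, per the file headers, read counts and FPKM of 56691 genes with their positions; GRCm39 is the build in the submitters' processing notes, which also list cutadapt 1.9.1, HISAT2 2.2.1, HTSeq 0.6.1 and DESeq2. Per the labels' protocols, total RNA was extracted with TRIzol, poly(A) RNA was captured on oligo(dT) beads and random primers were used. Further details (annotation release, strand setting, treatment of reads that map to several places) were not given in the sources used here. FPKM were made by the authors from the deposited counts and exon lengths: of values with 500 or more counts, 99.997% lay within 1% of a recomputed FPKM.

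The counts of 17928 genes that passed edgeR's filterByExpr (minimum 10) were tested with edgeR 4.0.16 in R 4.3.3 (TMM, quasi-likelihood F test, Benjamini-Hochberg adjustment, threshold 0.05). Comparisons with sham were fitted on the 20 mice of the 2 groups, and comparisons among TNBS groups on all 40 TNBS mice. SE is the log2 fold change divided by the root of F, and intervals are at 95%. FPKM were used for levels and overlaps only, except in an alternative with limma 3.58.1 on log2(FPKM + 0.5). Other alternatives were DESeq2 1.42.0, no filter, quantile normalization, exact rank-sum tests, a replicate block, other sets of mice in the fit, and leaving out each mouse in turn (not run for a dose against sham). Those without libraries high in acinar genes (over 100 CPM) or low in Xist or Hoxd13 (under 10 CPM) were chosen after seeing the data. The test recovered known changes in simulated counts that had the same spread in every group. Those counts cannot show how it behaves with the unequal spread of the groups here.

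The members and gene lists were chosen with earlier results of these data known. Described in full were the 4 Timps, the 10 called members with the largest rise and up to 5 with the largest fall in vehicle against sham, and members called between doses or moving further from sham at a dose; other members were named with their values, and of each other list the 4 called genes with the smallest p in vehicle against sham, 1 of which is not reported here. A search for protein motifs was planned but no protein table was used here. Replicates are mice titled separately in the labels. Library totals were 14373337 to 20446967 counts, so a gene under 1 CPM rests on about 20 counts or fewer per mouse. Comparisons that share a control group are not independent.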

Additional observations from a re-analysis of the deposited data

Results flagged for a closer look

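Of 105 groups of 10 mice examined (21 genes in 5 groups, on log2(FPKM + 0.1)), 7 held 1 mouse far from the other 9, with a gap to the nearest mouse above Dixon's 95% critical share of the range; chance alone gives this in about 1 group in 20. All but 1 of the 7 were at 10 mpk. A1007 10 replicate 5 had 37.8 FPKM of Mmp3 and 32.0 FPKM of Mmp13, both the highest of the group, and with 34.6 FPKM the lowest Timp2. It also had the highest neutrophil and squamous marker sums of the group. A1007 10 replicate 1 had the highest Adamts7 (2.2 FPKM) and Adamts2 (7.71 FPKM), together with the highest fibroblast marker sum. A1007 10 replicate 9 had the lowest Timp3, at 2.87 FPKM. In sham, replicate 7 had 0.03 FPKM of Adamts4, the lowest of its group. The part of cell composition in these values was not tested.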

How the results depend on the processing

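No call changed direction under any alternative run. Between vehicle and sham the number of genes called, 29, stayed between 26 and 29 under the alternatives and between 28 and 30 with each mouse left out. Over all tested genes the calls, 5681, ran from 4144 to 6228 and from 4767 to 6089. For 10 mpk against vehicle (3 called) it was 5 with DESeq2, 1 without a filter on low counts, 0 with rank-sum tests and with only the 2 groups compared, 0 without the libraries high in acinar genes, 1 without those low in Xist, and 1 to 15 with each mouse left out. Over all tested genes the 1030 calls became, in the same order, 1448, 545, 0, 4, 33, 580 and 494 to 2436. For 30 mpk against vehicle (27) leaving out each mouse gave 26 to 28 (4604 to 6880 over all genes), and for 90 mpk (22) it gave 19 to 23 (2616 to 3719). Without the acinar-high libraries the count at 90 mpk was 10, and 681 over all genes, against 3266 in the main fit. For 30 against 10 mpk (9) it was 16 with DESeq2 and 18 without the acinar-high libraries. It was 13 without the Xist-low libraries, 6 without the Hoxd13-low libraries and 6 to 18 with each mouse left out. Over all genes the 361 calls became, in the same order, 796, 1192, 870, 117 and 159 to 1405. For 90 against 10 mpk (1) it was 11 with DESeq2, 0 without a filter, with quantile normalization, with limma on FPKM, with the block or without the Xist-low libraries, 2 with rank-sum tests, 10 without the acinar-high and 4 without the Hoxd13-low libraries, and 0 to 2 with each mouse left out. For 90 against 30 mpk (0) it was 1 with rank-sum tests, 2 with only the 2 groups compared and 0 with each mouse left out. Over all genes the 66 calls became 2763, 3072 and 32 to 90. With all 50 mice in 1 fit the calls against sham went from 23 to 15 at 30 mpk and from 24 to 17 at 90 mpk. Over all genes they went from 10577 to 9008 and from 8111 to 4399. Without the acinar-high libraries the calls against sham were 20 at 30 mpk and 20 at 90 mpk (10345 and 6992 over all genes). The cause of these differences was not tested.

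The labels do not state that replicate numbers pair the mice. Of 100 same-numbered pairs 30 had a correlation of deviations over 0.1, from -0.28 to 0.50. The median was 0.23 between vehicle and 10 mpk (-0.01 for mice with different numbers), and -0.08 to 0.07 between the other groups. These correlations do not settle whether mice were paired. With the replicate number as a block the counts were 27 for vehicle against sham, 4, 27 and 21 for 10, 30 and 90 mpk against vehicle, 26, 19 and 24 against sham, 7 for 30 against 10 mpk, 0 for 90 against 30 mpk and 0 for 90 against 10 mpk. Over all tested genes they were, in the same order, 4380, 922, 6022, 3186, 5806, 10196, 7220, 471, 586 and 13.

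The limits are few reads for genes near 0 FPKM (Mmp8 in sham), a wide spread between vehicle mice and between mice at 10 mpk, unknown strand setting for overlapping genes, and bulk tissue.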
